A study of Mus musculus with 12 samples.

Results

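The miR-34 family was followed in mouse liver through 2 days of a light-dark schedule. Its members were the array entries named miR-34a, miR-34b-3p, miR-34b-5p and miR-34c, chosen by name with the star forms left out: 4 of the 650 entries on the array, each measured by 2 probes. Only miR-34a was detected in these livers. It was present on 12 of 12 arrays and varied 1.34-fold between its highest and lowest array, and neither a 24-h rhythm nor a difference between dark and light passed a test. The other 3 members were detected on 0 of 12 arrays.

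Adult mice of a strain and sex not given in the sources used here were kept under 12 h light and 12 h dark and could eat and drink at will. Livers were collected every 4 h from zeitgeber time (ZT, hours after a lights-on) 18 to 62, and equal amounts of RNA from 2 livers of a time were pooled on 1 one-colour (Cy3) Agilent miRNA array. Dark arrays were ZT18, ZT22, ZT38, ZT42, ZT46 and ZT62, and light arrays were ZT26, ZT30, ZT34, ZT50, ZT54 and ZT58. Cycle 2 is the later and cycle 1 the earlier array of each of the 6 clock times, 24 h apart. All mice shared the same schedule and no group was mutant or drug-treated, and RNA of a whole liver cannot tell fewer cells of a type from less RNA per cell. The purpose the series states is the control of the circadian rhythm by miRNAs after transcription. Replication was between pools of 2 livers, so p-values reflect pools and their handling rather than single mice, and the number of arrays limits the precision.

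MicroRNAs guide repression of messenger RNAs that pair with their seed, the bases 2 to 8 from the 5′ end. The tumour suppressor p53 raises transcription of the miR-34 genes, and the family represses genes of the cell cycle and of survival. miR-34a has a gene of its own and is expressed broadly, while miR-34b and miR-34c come from a shared transcript that is best known in testis, lung and other tissues with ciliated cells. In liver, miR-34a is known to repress Sirt1, a NAD-dependent deacetylase that acts on metabolic regulators and on clock proteins, and its level is known to be raised in fatty liver.

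The family holds 2 seed classes, and the sequences are shown because members with a shared seed can pair with the same sites. All were taken from RefSeq on mouse build GRCm38.p6, 5′ to 3′, with the seed in capitals.
mmu-miR-34a-5p: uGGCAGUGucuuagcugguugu
mmu-miR-34b-5p: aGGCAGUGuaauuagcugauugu
mmu-miR-449a-5p: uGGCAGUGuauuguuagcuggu
mmu-miR-449c-5p: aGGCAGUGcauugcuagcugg
mmu-miR-34b-3p: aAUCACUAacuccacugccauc
mmu-miR-34c-3p: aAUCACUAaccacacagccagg
The seed GGCAGUG was held by 4 of the 1679 mature mouse sequences in that table (0.238%), namely miR-34a-5p, miR-34b-5p and the 5p arms of miR-449a and miR-449c, miRNAs known from ciliated epithelium. miR-34b-3p has another seed, AUCACUA, which it shares with miR-34c-3p alone, the star arm that is no member. From the 5′ end and without gaps, miR-34a-5p matched miR-34b-5p at 11 of 22 bases and miR-449a-5p at 15 of 22. The mature miR-34c of the array and miR-449b were not in that table and are named only. The hairpin of Mir34c is therefore shown, with the same 7 bases in capitals, starting at base 14.
Mir34c hairpin: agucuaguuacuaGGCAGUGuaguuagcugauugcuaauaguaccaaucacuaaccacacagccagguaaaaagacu
The mature miR-34a-5p lies at chr4:150068473-150068494 on the plus strand, within a 102-base hairpin at chr4:150068454-150068555. The Mir34b hairpin, 84 bases long, lies at chr9:51103562-51103645 and the Mir34c hairpin, 77 bases long, at chr9:51103034-51103110, both on the minus strand and 451 bases apart. These coordinates are RefSeq's, since the array files give none.

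The first question was which members the liver held. The scanner software calls each spot well above background or not and each entry detected or not, and its calls were used as deposited. For a single probe, over 50% of the spots had to be called so for it to count as detected. miR-34a and both its probes were detected on all 12 arrays. For its brighter probe 119 of 119 spots were well above background, and for its dimmer probe 113 of 115. Of all 650 entries, 139 were detected on at least 6 arrays and were tested, 112 on all 12 and 427 on none, so miR-34a belonged to the detected minority. Detection alone is no proof of specificity, since 4 of the 39 herpesvirus entries on the array were also detected on at least 6 arrays.

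miR-34b-3p, miR-34b-5p and miR-34c were not well above background, and only a bound can be given for them. The values are spot intensities after background subtraction, brought to a common scale between arrays, and the lowest level treated as a signal was 21.9 units. Averaged over the spots of both probes, miR-34b-3p had a lowest array mean of -0.28 units at ZT58, a median of 1.45 and a highest of 3.71 at ZT50. miR-34b-5p had a lowest array mean of -2.59 at ZT50, a median of -0.52 and a highest of 0.46 at ZT34. miR-34c had a lowest array mean of -4.28 at ZT46, a median of -2.47 and a highest of 7.55 at ZT50. Every one of these 3 members thus stayed near 0 on the arrays of both dark and light, and no fold is given for them.

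Over these 3 members, 3 of 676 spots were well above background, a share of 0.444% (exact 95% binomial interval 0.0916% to 1.29%). The same share was 3 of 4860 spots, 0.0617% (exact interval 0.0127% to 0.180%), for the negative control probes, and 640 of 8786 spots, 7.28%, for the herpesvirus entries. Array means over the members' spots lay between -1.23 and 3.07 units, against 1.13 to 3.56 for the negative controls. The intervals cover counting error only. The members' 3 bright spots sat on single arrays: 1 of 9 spots of a miR-34b-3p probe at ZT62, at 31.1 units with a median of -2.30 for that probe, and 2 of 10 spots of a miR-34c probe at ZT50, at 70.4 and 67.9 units with a median of 4.60. The other miR-34c probe averaged -1.30 units at ZT50, so the bright spots were not shared between the probes.

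The seed relatives miR-449a, miR-449b and miR-449c were likewise detected on 0 arrays, with 10 probes between them. Each had 1 spot well above background in all, at 33.2 units for miR-449a (ZT54), 71.3 for miR-449b (ZT50) and 59.7 for miR-449c (ZT54). All these bright spots, like those of the undetected family members, lay on arrays of the second slide (ZT50 to ZT62). Arrays of that slide also had more outlier spots left out, 6.12% to 6.94% against 3.82% to 5.49% on the first slide. The part of the slide in the bright spots was not tested. Among the entries with the seed GGCAGUG, miR-34a was thus the one detected in these livers. The marker entries set aside for neurons (3), pancreas (4) and striated muscle (4) were also detected on 0 arrays. All 5 of 5 hepatocyte markers, miR-122 among them, were detected on all 12. Over all 650 entries, 427 were detected on 0 arrays and 112 on all 12.

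**Figure D1:**
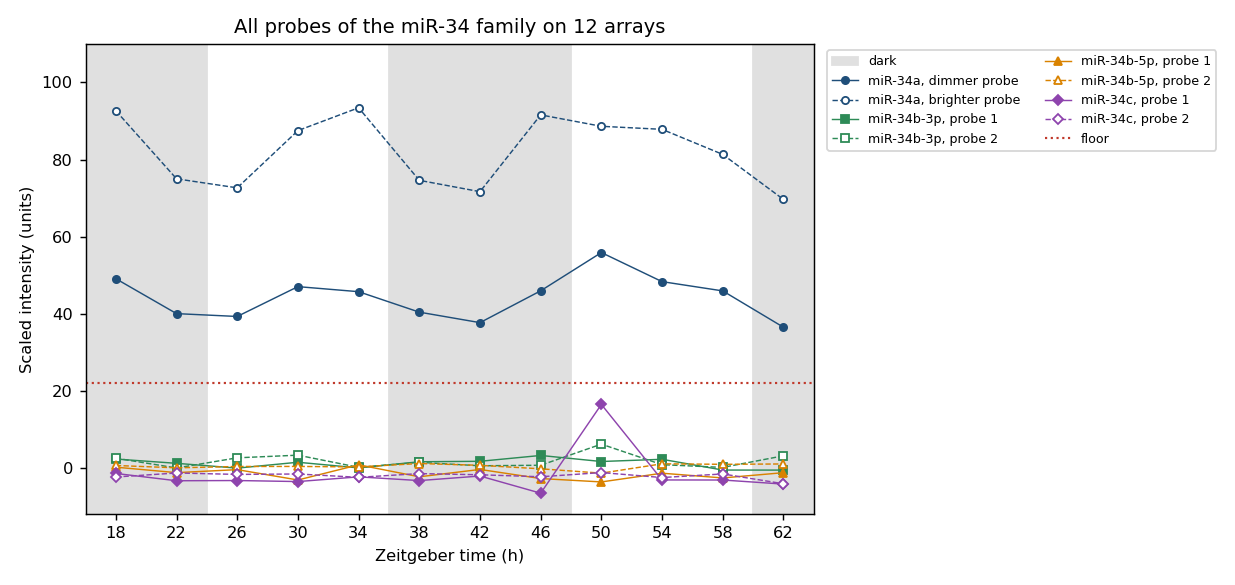
Scaled spot intensity (y axis, units) of all 8 probes of the 4 family members against zeitgeber time (x axis, h), 1 point per array, dark hours shaded. Both miR-34a probes stayed above the floor of 21.9 units on all 12 arrays, while the 6 probes of the other members stayed below it, the highest being a miR-34c probe at 16.4 units at ZT50.

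miR-34a was then read at each time from its brighter probe, each value being a mean of 9 or 10 spots. In time order the brighter probe measured 92.7 units at ZT18, 74.98 at ZT22, 72.6 at ZT26, 87.5 at ZT30, 93.4 at ZT34 and 74.6 at ZT38. Through the remaining times it measured 71.6 at ZT42, 91.6 at ZT46, 88.6 at ZT50, 87.8 at ZT54, 81.3 at ZT58 and 69.6 at ZT62. The highest arrays, ZT34, ZT18 and ZT46, were 2 dark and 1 light, and the lowest, ZT62, ZT42 and ZT26, were 2 dark and 1 light. High and low arrays thus occurred in both dark and light.

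The dimmer probe measured 49.0 units at ZT18, 40.0 at ZT22, 39.2 at ZT26, 47.0 at ZT30, 45.7 at ZT34 and 40.4 at ZT38. It then measured 37.6 at ZT42, 45.9 at ZT46, 55.8 at ZT50, 48.3 at ZT54, 45.9 at ZT58 and 36.4 at ZT62. ZT62 and ZT42 were the lowest arrays for both probes, whereas the highest was ZT50 for the dimmer and ZT34 for the brighter probe. Over the 12 arrays the probes correlated with a Pearson r of 0.867 and a Spearman rho of 0.790, and with 0.810 and 0.734 without scaling. Points share their array and its scaling factor, so this is a description. Among the 65 tested entries with 2 detected probes, the median r was 0.854 (range 0.160 to 0.987), and miR-34a stood at rank 29.

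**Figure D2:**
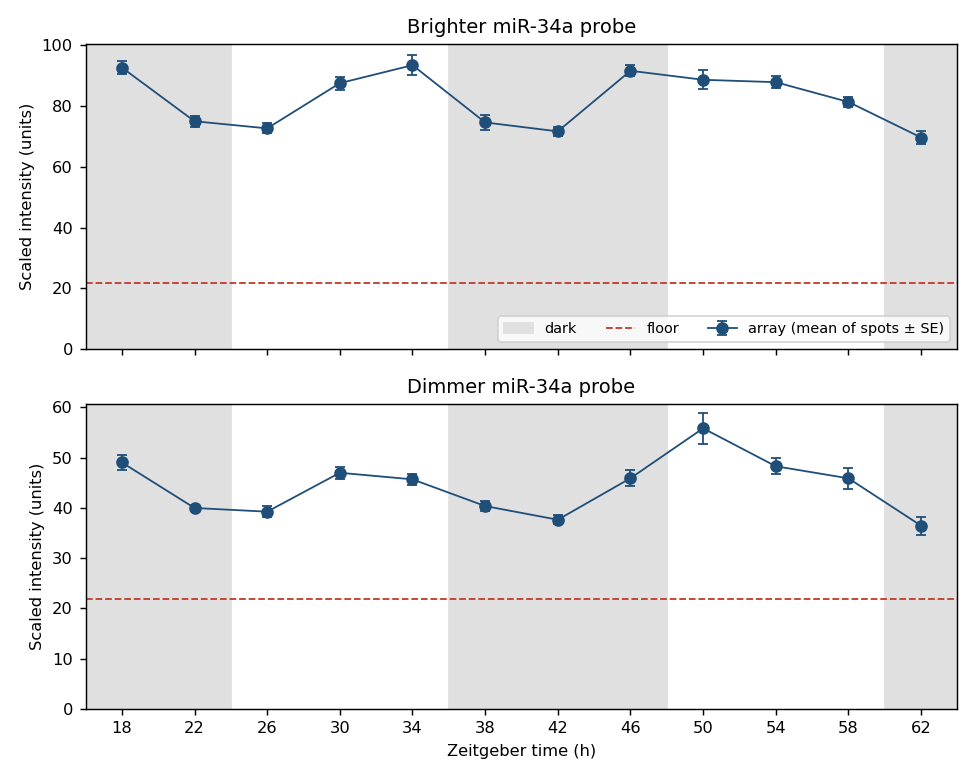
Scaled intensity (y axis, units) of the brighter (top) and dimmer (bottom) miR-34a probe against zeitgeber time (x axis, h), with the SE over spots and the dark hours shaded. Both probes were low at ZT22, ZT26, ZT38, ZT42 and ZT62, and the range between arrays was 1.34-fold for the brighter and 1.53-fold for the dimmer probe.

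The differences between arrays were larger than the error of the spots. On the log2 scale the SD of miR-34a over the 12 arrays was 0.16 for the brighter and 0.18 for the dimmer probe, while the SE of an array's mean, from its own spots, had a median of 0.034 (range 0.027 to 0.051) for the brighter probe. The SD over arrays was 4.72 times that median SE. How well they repeated after 24 h depended on the clock time, the 2 arrays differing by 0.0054 at 6 h and by 0.37 at 18 h. The SD between arrays of the same clock time was 0.17, with 0.10 between the means of the clock times. Those means average 2 arrays, which by itself lowers an SD, so the SDs are unlike measures. Without scaling the brighter probe lay between 70.5 and 92.0 units with an SD of 0.13, and its scaled log2 value correlated with the array's scaling factor (r = 0.614, rho = 0.615, 12 arrays). The part of scaling in the differences was not tested.

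miR-34a varied more than most entries of like brightness. Among the 20 tested mouse entries nearest to it in mean (59.4 to 112 units), 16 had a lower SD, the median being 0.098 and the range 0.057 to 0.35. Of the 109 tested entries never at the floor, it had the 24th highest SD, and their median was 0.095.

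**Figure D3:**
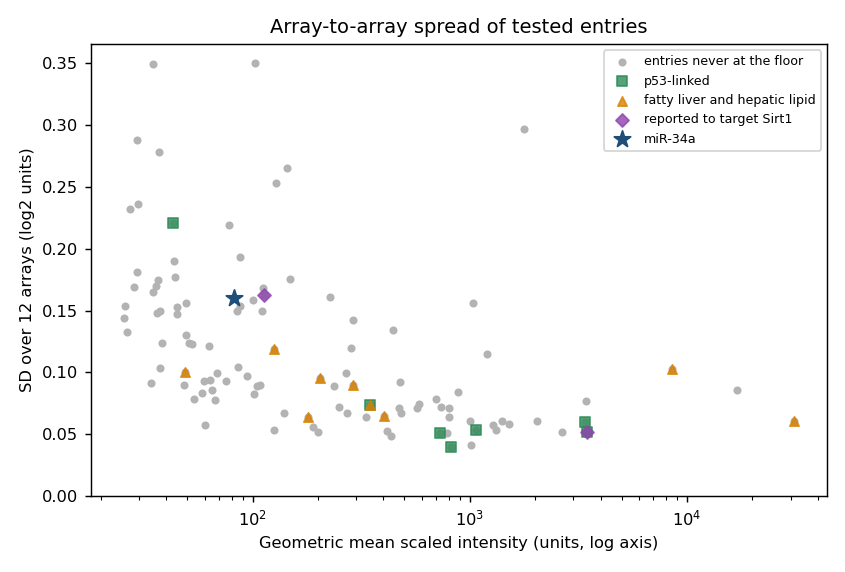
SD over the 12 arrays (y axis, log2 units) against geometric mean scaled intensity (x axis, units, log axis) of the 109 tested entries never at the floor, with 3 lists linked to miR-34a marked. miR-34a (star) stands at an SD of 0.16, above the median of 0.095.

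The main question of the design was whether miR-34a follows the day. It did not pass the test for a 24-h rhythm. The peak of the fitted curve stood 1.11-fold above its trough, with an upper 95% limit of 1.44 for that peak-to-trough fold, and lay 4.81 h after lights on (limma F test of 24-h cosine and sine terms, unadjusted p = 0.525, Benjamini-Hochberg adjusted p = 0.957, rank 76 of 139 by p). A permutation of the 12 time labels gave p = 0.529 (100000 draws). The dimmer probe gave a larger fitted difference, and no limit is given for it. For the brighter probe and the scaling used, folds above 1.44 lay outside the 95% region, and smaller ones could not be told from none. With normexp the fold was 1.54 (limma adjusted p = 0.748), or 0.62 log2 units, where the median of all tested entries was 0.58, so the limit of 1.44 does not carry over to that correction. Over all 139 tested entries 0% passed the adjusted test (smallest adjusted p 0.849), and 5, or 3.6%, had an unadjusted p under 0.05.

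By clock time, miR-34a was highest 6 h after lights on and lowest 14 h after. In order of level, the mean log2 intensities were 6.45 ± 0.0038 at 6 h (87.5 and 87.8 units), 6.45 ± 0.14 at 10 h (93.4 and 81.3) and 6.37 ± 0.20 at 22 h (74.98 and 91.6; SD, n = 2 each). Lower means followed at 18 h with 6.35 ± 0.26 (92.7 and 71.6), 2 h with 6.33 ± 0.20 (72.6 and 88.6) and 14 h with 6.17 ± 0.070 (74.6 and 69.6; SD, n = 2 each). Every neighbouring pair in this order had overlapping arrays. Farther apart in the order, both brighter-probe arrays at 14 h lay below both at 6, 10 and 22 h. At 22 h the margin was narrow, 74.6 units at ZT38 against 74.98 at ZT22. For the dimmer probe 14 and 22 h overlapped, with 40.4 units at ZT38 and 40.0 at ZT22. The share of all entries with such a separation is not given here. The highest and lowest clock means differed 1.22-fold, or 0.28 log2 units, and the F test over the 6 clock times did not pass (limma, unadjusted p = 0.590, adjusted p = 0.869). With all-probe scaling the span was 0.77 and with normexp 1.10 log2 units, where the medians of all tested entries were 0.69 and 1.04, against 0.20 with the scaling used. In that test 0% of the 139 entries passed, and 6, or 4.32%, had an unadjusted p under 0.05.

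**Figure D4:**
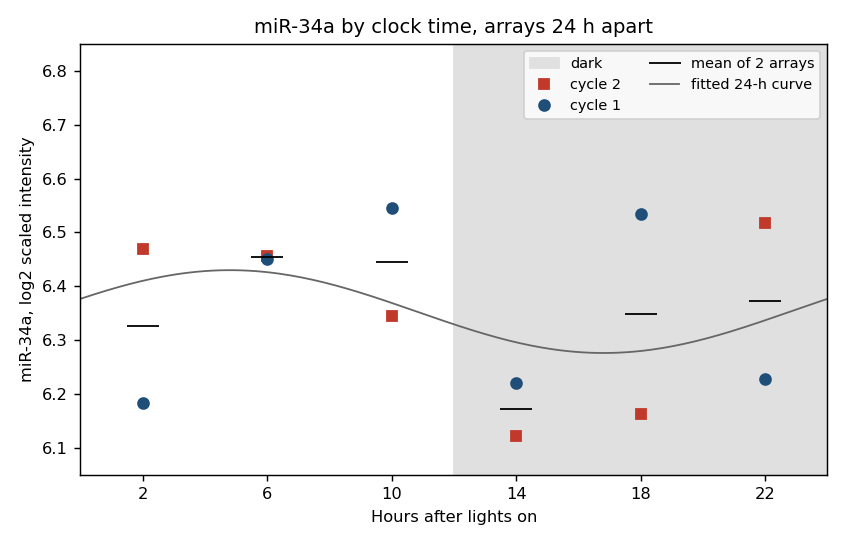
miR-34a (y axis, log2 scaled intensity; the axis does not start at 0) against hours after lights on (x axis), with cycle 2 as squares, cycle 1 as circles, the mean of the 2 arrays as a bar and the fitted 24-h curve as a line. At 2, 18 and 22 h the 2 arrays differ by 0.29 to 0.37, more than the 0.28 between the highest and lowest clock means, while at 6 h they nearly coincide.

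Between dark and light, miR-34a averaged 6.30 ± 0.18 log2 units on dark arrays (lowest 69.6, median 74.8, highest 92.7 units) and 6.41 ± 0.13 on light arrays (lowest 72.6, median 87.7, highest 93.4 units; SD, n = 6 each). The groups overlapped, with 4 of 6 dark arrays below the light mean and both ZT18 and ZT46 among the highest arrays of the series. The difference, dark minus light, was -0.11 (SE 0.088), a fold of 0.926 (95% interval 0.809 to 1.06), and did not pass (limma, unadjusted p = 0.233, adjusted p = 0.740). An exact two-sided permutation over all 924 splits of the arrays gave p = 0.236. In this comparison 0% of the 139 entries passed (smallest adjusted p 0.355), 11, or 7.91%, had an unadjusted p under 0.05 (3 higher, 2.16%, and 8 lower, 5.76%, in dark), and 0.719%, a single entry, had dark and light arrays that did not overlap. These values hold for the scaling used, under which the median of all tested entries was -0.023. Scaling on all probes gave 0.32 for miR-34a and 0.38 for that median, and normexp background correction gave -0.39 and -0.35. Relative to the median, miR-34a differed by -0.088 with the scaling used, by -0.059 with all-probe scaling and by -0.037 with normexp.

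No difference between the 2 days was detected, though at 2, 6, 10 and 14 h the arrays of the 2 cycles also lay on different slides. miR-34a averaged 6.35 ± 0.17 log2 units in cycle 2 (lowest 69.6, median 84.5, highest 91.6 units) and 6.36 ± 0.17 in cycle 1 (lowest 72.6, median 81.0, highest 93.4 units; SD, n = 6 each). Cycle 2 was the higher in 3 of 6 clock times, and the ratio of cycle 2 over cycle 1 ran from 0.773 at 18 h to 1.22 at 22 h. The difference, cycle 2 minus cycle 1, was -0.015 (SE 0.10), a fold of 0.990 (95% interval 0.832 to 1.18; limma, unadjusted p = 0.889, adjusted p = 0.996). An exact two-sided sign-flip permutation over the 6 pairs gave p = 0.875, where the smallest p possible is 0.0312. Of all entries 0% passed, and 5, or 3.6%, had an unadjusted p under 0.05.

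The difference between dark and light was also set side by side in the 2 cycles. In cycle 2 dark arrays averaged 6.27 ± 0.22 and light arrays 6.42 ± 0.068, and in cycle 1 dark arrays averaged 6.33 ± 0.18 and light arrays 6.39 ± 0.19 (SD, n = 3 each). The interaction was -0.091 log2 units (95% interval -0.53 to 0.35; limma, unadjusted p = 0.647, adjusted p = 0.951), so a change of the dark-light difference between cycles was not detectable. In that test 0% of the 139 entries passed and 3, or 2.16%, had an unadjusted p under 0.05.

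The arrays lay on 2 slides, scanned separately, with ZT18 to ZT46 (8 arrays) on the first and ZT50 to ZT62 (4 arrays) on the second. With slide as a block, dark minus light was -0.13 (limma adjusted p = 0.875), the interaction -0.24 and cycle 2 minus cycle 1 -0.041 (1.0), in log2 units. All light arrays of cycle 2 lay on the second slide. Within cycle 2 the blocked interaction thus set ZT62, the only dark array of that slide, against them. That interaction rests on a single array and is given without a p-value. On the first slide alone, dark minus light was -0.061 and cycle 2 minus cycle 1 -0.041 (limma adjusted p = 1.0 for both), while the interaction could not be fitted. The cycle value came from the pairs at 18 h and 22 h alone, both here and with the block, so the same estimate is shown for both. At 2, 6, 10 and 14 h the cycle 2 array lay on the second slide, where cycle and slide cannot be told apart. The rhythm's peak-to-trough difference was 0.17 log2 units with the block and 0.12 on the first slide, and the span of clock means was 0.28 and 0.36. The second slide held 1 dark array, too few for values of its own.

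The entries whose course was most like that of miR-34a were found by Pearson r over the 12 log2 values, among 105 tested mouse entries never at the floor. The 5 highest were miR-15b (r = 0.775, rho = 0.804), miR-223 (0.719, 0.783), miR-1224 (0.706, 0.839), miR-342-3p (0.687, 0.566) and miR-494 (0.638, 0.608). miR-15b belongs to a family that represses cell cycle genes, and miR-223 is a miRNA of myeloid blood cells. These values are descriptions: the points share arrays and scaling factors, the median r of all 105 entries was 0.223, and 87 of them lay above 0. Without the 2 arrays farthest from the median of miR-34a, ZT62 and ZT42, r was 0.741 for miR-15b, 0.660 for miR-223, 0.689 for miR-1224, 0.576 for miR-342-3p and 0.549 for miR-494. Without scaling, r was 0.581, 0.736, 0.501, 0.691 and 0.416 in the same order, and 3 of the 5 stayed among the highest 5. By Spearman rho 3 of the 5 stayed there too, and 3 to 5 did when 1 array was left out.

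miR-15b was highest at ZT18, with 299 units, and lowest at ZT22, with 235, while miR-34a had its lowest array at ZT62. miR-223 was highest at ZT34, with 132 units, and lowest at ZT62, with 93.9, and so shared both extremes with miR-34a. The lowest r belonged to miR-30e* (-0.43, rho = -0.10), miR-194 (-0.40, rho = -0.60) and miR-125b-5p (-0.39, rho = -0.21). miR-194 is a hepatocyte miRNA made from shared transcripts with miR-192.

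**Figure D5:**
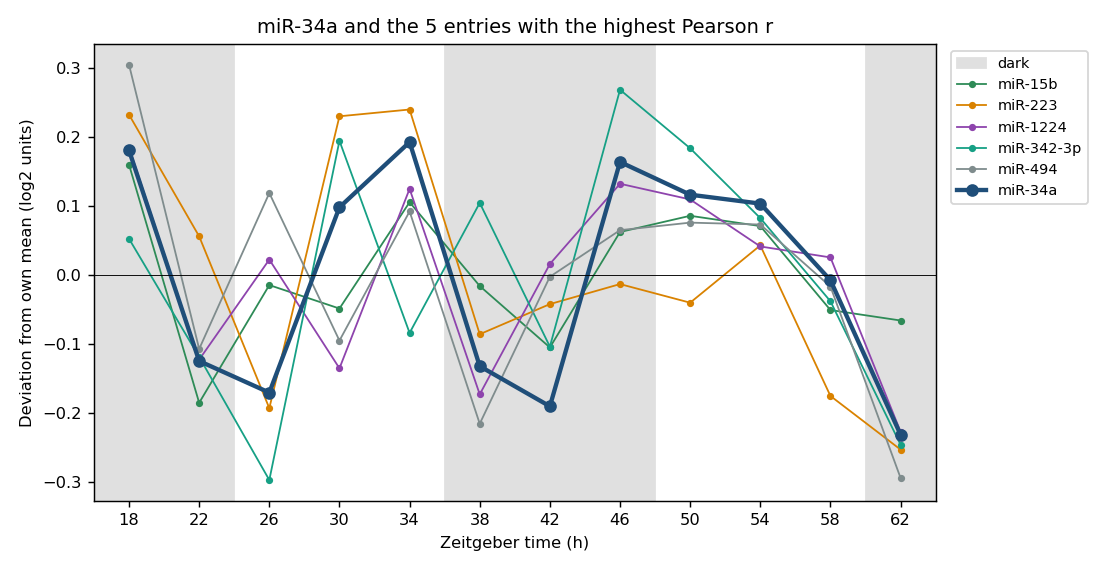
Deviation of miR-34a and of the 5 entries with the highest r from their own mean (y axis, log2 units) against zeitgeber time (x axis, h), dark hours shaded. All but miR-15b had their lowest or nearly lowest value at ZT62, the lowest array of miR-34a, and the courses parted at ZT26 and ZT30.

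Because miR-223 was among these, the leukocyte markers were read as a whole. Of the 5 listed, miR-142-3p, miR-142-5p and miR-223 were detected on all 12 arrays, and miR-150, a lymphocyte miRNA, and miR-155, a miRNA of activated leukocytes, on 0. The summed intensity of the 3 ranged from 372 to 451 units on dark arrays and from 384 to 473 on light arrays. Their mean log2 value lay between 6.34 and 6.80 and correlated with miR-34a at r = 0.662 (rho = 0.741, 12 arrays), at 0.487 without ZT62 and ZT42 and at 0.684 without scaling. Part of this r was fixed by the choice of miR-223 for its likeness to miR-34a. With miR-223 left out, a step chosen after seeing the data, the mean of miR-142-3p and miR-142-5p had an r of 0.480 (rho = 0.650), of 0.261 without ZT62 and ZT42 and of 0.522 without scaling. For the 5 hepatocyte markers, summed to 35148 to 38598 units on dark and 35008 to 38725 on light arrays, r was 0.290 (rho = 0.329) and 0.035 without scaling. For red cell markers (2 of 3 tested) r was 0.286 (rho = 0.322) and 0.082 without scaling. For endothelial markers (2 of 2) r was -0.0091 (rho = 0.154) and 0.0046 without scaling. For markers of stellate cells, fibroblasts and smooth muscle (3 of 5) r was 0.116 (rho = 0.378) and 0.290 without scaling. For markers of bile duct and other epithelium (2 of 5) the sign turned with the measure, r being -0.21 (rho = 0.151) and 0.080 without scaling. These markers, miR-200a and miR-200b, each lay at the floor on 3 arrays. The part of white blood cells in the course of miR-34a was not tested.

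The miRNAs tied to miR-34a by p53, by Sirt1 or by fatty liver likewise had no member past a test. Of 16 miRNAs linked to p53, 15 were on the array and 8 were tested. The other 7 were detected on 0 arrays, the remaining miR-34 members among them, where 427 of all 650 entries were. In all 5 tests 0 of the 8 passed the adjusted threshold, and 1 had an unadjusted p under 0.05 for a rhythm, where 3.6% of all entries did. That one was miR-143, a miRNA of smooth muscle and fibroblasts, whose peak-to-trough fold was 1.34 (upper limit 1.76), with a fitted peak 22.3 h after lights on (limma, unadjusted p = 0.0367, adjusted p = 0.849). miR-15a had a fold of 1.04 (upper limit 1.13) and miR-192 one of 1.04 (upper limit 1.15). The median fold of the 8 was 1.04, against 1.08 for all 139, and the dark mean was below the light mean for 6 and above it for 2, against 92 and 47 of all 139.

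Of 14 miRNAs reported to target Sirt1, 13 were on the array and 4 were tested: miR-34a, miR-22, miR-181b and miR-199a-3p. The 9 others on the array were detected on 0 arrays, including the brain miRNA miR-9 and the seed relative miR-449a. Detection on 0 arrays was common, holding for 427 of all 650 entries. The median peak-to-trough fold of the 4 was 1.11, and 0 passed. miR-22, which is abundant in liver, had a fold of 1.04 (upper limit 1.13). miR-181b had a fold of 1.82 with 1 array at the floor, so it has no limit.

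All 18 miRNAs linked to fatty liver and hepatic lipid were on the array. Of these, 12 were tested and 3 were detected on 0 arrays, where 427 of all 650 entries were. Their median peak-to-trough fold was 1.08, as for all entries, the dark mean was below the light mean for 8 and above it for 4, and 0 passed. miR-122, the most abundant hepatocyte miRNA, which supports cholesterol and fatty acid synthesis, had a fold of 1.03 (upper limit 1.14). miR-21, raised in injured liver, had a fold of 1.12 (upper limit 1.29), and miR-221, linked to liver fibrosis, one of 1.11 (upper limit 1.29). miR-200b, a miRNA of bile duct and other epithelium, had a fold of 1.39 with 3 arrays at the floor and so no limit. The upper limit of miR-34a, 1.44, was higher than those of miR-122, miR-21 and miR-221.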

How the data were processed

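Each array's spot intensity values (processed signal) were deposited by the authors, background-subtracted and detrended with Agilent Feature Extraction per the file headers, which name version 10.7.3.1; the submitters' processing notes name 9.5.3.1. The deposited series table held the same values (largest difference 0). Control spots and outlier spots (3.82% to 6.94% per array) were left out; 0 spots were saturated. Spots of a probe were averaged, and each array was scaled by its 75th percentile, taken over 157 probes detected on every array (over 50% of spots well above background) (factors 0.853 to 1.08). A floor of 21.9 units was set, log2 taken, and each entry read from its brightest probe.

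Entries that the software called detected on 6 or more arrays (139) were fitted with limma 3.58.1 (intensity trend) in R 4.3.3, files being read with data.table (version 1.17.8), and adjusted by Benjamini-Hochberg at 0.05. The tests were also run on simulated data. Between 132 and 162 entries were detected per array, and 16.5% to 19.6% of spots, outlier spots included, were well above background. Times, lights and cycles came from the sample titles. The members, the 3 lists and the markers were chosen with earlier results of these data known. Named entries were all members and seed relatives, the 5 highest and 3 lowest by r, and per list the 3 tested members with the smallest p for a rhythm, with miR-122. The miR-34a probes were split into brighter and dimmer by mean. Alternatives covered scaling, background correction (normexp, offset 50), summaries, filters, slide and left-out arrays. Normexp was run on median signals in place of the planned mean signals, which the deposited array data lack.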

Additional observations from a re-analysis of the deposited data

Results flagged for a closer look

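The light arrays of miR-34c held 1 that stood far from the others. ZT50, at 7.55 units, lay 0.952 of the whole range of the 6 light arrays away from its nearest neighbour. Among the 6 arrays of cycle 2 the same array's gap was 0.811 of the range. Both values rest on the 2 bright spots of 1 of the 2 miR-34c probes described above, on an array of the second slide, and miR-34c was not called detected there. Of the 20 groups of family values examined this way these were the only ones to stand out. Chance gives about 1 in 20 for independent groups. These groups share arrays, and both flags rest on ZT50, so that figure is only a rough guide.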

How the results depend on the processing

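miR-34a passed none of the 5 tests under any alternative run. All-probe scaling and normexp moved all entries together, so their values are given with the median of all tested entries. Dark minus light was 0.32 with all-probe scaling (median 0.38) and -0.39 with normexp (median -0.35). Cycle 2 minus cycle 1 was -0.55 with all-probe scaling (median -0.50) and 0.32 with normexp (median 0.35). The interaction was 0.63 with all-probe scaling (median 0.64) and -0.64 with normexp (median -0.60). Relative to these medians miR-34a stood on the negative side in each, as in the values reported. The rhythm's peak-to-trough difference was 0.27 and 0.62 (medians 0.39 and 0.58), and the span of clock means 0.77 and 1.10 (medians 0.69 and 1.04), in the same order. Signs also turned for the interaction with quantile normalization (0.045), and for the cycle with the mean of all probes (0.011, or -0.018 relative to the median) and with the dimmer probe, an alternative chosen after seeing the data (0.038). That probe also gave 0.25 for the rhythm, -0.18 for dark minus light and -0.29 for the interaction. Without scaling, dark minus light was -0.050, the cycle difference -0.060 and the interaction -0.19, and the interaction was also -0.19 with the mean of all probes and -0.16 with the total gene signal. The cause was not tested. With 1 array left out, values ranged from 0.11 to 0.26 for the rhythm, 0.23 to 0.37 for clock time, -0.16 to -0.076 for dark minus light, -0.076 to 0.056 for the cycle and -0.22 to 0.014 for the interaction. The cycle difference was positive without ZT18, ZT34, ZT38, ZT42, ZT58 or ZT62, and the interaction without ZT18 (0.012) or ZT26 (0.014). Entries past the adjusted threshold, 0 in every test as reported, numbered 2 with normexp for the rhythm and 2 for clock time (miR-451 and miR-709 in both), and 1 for the interaction (miR-451). They numbered 1 with quantile normalization for the interaction (miR-148a) and 3 on the first slide for clock time (miR-1897-5p, miR-362-3p and miR-680). With 1 array left out they ranged from 0 to 8 for clock time and 0 to 2 for dark minus light, the highest being without ZT26 and without ZT30 (clock time also 2 without ZT46 and 1 without ZT54 or ZT58), and 0 for the other tests. Counting an array as detected from any bright spot gave 3 members detected somewhere, against 1. The added members, miR-34b-3p and miR-34c, passed only through the bright spots described above, at ZT62 and ZT50 on the second slide. The share of all entries that would pass this looser rule is not given here. The interaction could not be fitted on the first slide. The cycle test kept clock time in the model and so paired arrays 24 h apart, and no other pairing is given by the labels. Signal limits the rest: the 3 dim members have only a bound, and the dimmer miR-34a probe lay between 36.4 and 55.8 units, near the floor of 21.9.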
